A study of Homo sapiens with 2 samples.

Results

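The peaks described here are those called around 4 genes of the cell surface: CAV1, CAV2, PTRF and MET. They come from 1 chromatin immunoprecipitation sequencing (ChIP-seq) library of MCF10A, an epithelial line from human breast tissue, in which the Flag-tagged active mutant YAP-5SA was expressed. DNA bound to the tagged protein was collected on Flag-M2 beads, and 1 input DNA library of the same line was sequenced beside it. A Flag precipitation from cells without YAP-5SA was not analysed here. The labels name neither a clone, nor the way in which the gene was expressed, and they call MCF10A both non-transformed and a breast cancer line. A peak was counted when its summit, the position of its highest enrichment in the deposited file, lay in 1 of 2 windows of hg19. The first runs on chromosome 7 from 116.04 to 116.49 Mb, for CAV2, CAV1 and MET, and held 5 summits. The second runs on chromosome 17 from 40.5 to 40.63 Mb, for PTRF, and held 3 summits. These 8 peaks are part of a list of 9393.

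Caveolae are flask-shaped pits of the plasma membrane that flatten when a cell is stretched. Caveolin-1, the product of CAV1, forms their membrane scaffold, and caveolin-2, the product of CAV2, joins it and depends on it to reach the cell surface. PTRF, now named CAVIN1, encodes the coat protein cavin-1, without which caveolae do not form in most cells. MET encodes the receptor tyrosine kinase for hepatocyte growth factor, which drives the scattering and branching of epithelial cells. YAP is a co-activator of transcription that the kinases of the Hippo pathway hold in check. It does not bind DNA itself and reaches it mainly through the TEAD transcription factors. In the 5SA mutant the serines that the LATS kinases phosphorylate are replaced, which keeps the protein active.

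In the RefSeq gene table, which is of GRCh38.p14, CAV2, CAV1 and MET follow each other along chromosome 7 with no other protein-coding gene between them. COMETT, a long non-coding RNA gene, is listed between CAV1 and MET, and CAV2-DT, another, precedes CAV2. The protein-coding neighbours on the outside are TES, which encodes the focal adhesion protein testin, before CAV2, and CAPZA2, an actin capping protein gene, after MET. Among protein-coding genes, PTRF stands between STAT3, a transcription factor gene, and ATP6V0A1, which encodes a subunit of the vacuolar proton pump. LOC102725238, a long non-coding RNA gene, is listed directly after PTRF. This order was used for names alone. The peaks are on hg19, no gene positions on hg19 were used, so a peak is given here by its position and window, and not as promoter, exonic or intronic. The windows can hold parts of the neighbouring genes, and a peak in the window of PTRF may lie nearer to STAT3 than to PTRF.

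The sequences before the start sites of the caveolin genes and MET are shown because they identify the genes and can be read for the DNA words of the factors that carry YAP. Each is the stretch of 250 bases that ends just before the first start site of the gene, 5′ to 3′, on the plus strand of GRCh38.p14, from RefSeq. Their positions cannot be compared directly with those of the peaks and windows, which are on hg19. Capitals mark GGGCGG or its reverse complement CCGCCC, a word bound by factors of the Sp family.
CAV2 (chr7:116499488-116499737): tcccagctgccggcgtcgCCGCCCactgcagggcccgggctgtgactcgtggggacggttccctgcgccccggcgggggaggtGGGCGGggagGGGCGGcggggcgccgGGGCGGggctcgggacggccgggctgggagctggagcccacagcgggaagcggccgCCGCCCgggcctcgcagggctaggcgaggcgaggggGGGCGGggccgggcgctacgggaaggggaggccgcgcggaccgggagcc
CAV1 (chr7:116524759-116525008): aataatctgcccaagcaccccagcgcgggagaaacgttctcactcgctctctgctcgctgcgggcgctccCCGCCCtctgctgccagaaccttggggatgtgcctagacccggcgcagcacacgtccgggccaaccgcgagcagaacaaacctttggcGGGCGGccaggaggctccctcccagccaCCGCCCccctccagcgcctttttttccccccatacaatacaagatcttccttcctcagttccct
MET (chr7:116671946-116672195): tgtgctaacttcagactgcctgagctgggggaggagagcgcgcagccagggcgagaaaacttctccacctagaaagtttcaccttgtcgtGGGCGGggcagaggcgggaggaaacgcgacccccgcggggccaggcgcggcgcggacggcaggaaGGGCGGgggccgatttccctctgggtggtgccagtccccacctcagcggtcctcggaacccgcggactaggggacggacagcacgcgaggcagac

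Further words were searched on both strands: GGAATG, the core of TEAD sites (reverse complement CATTCC), and TGANTCA, the site of AP-1, a factor often found beside TEAD. Neither occurred in the sequences above, nor in the windows of the 3 other start sites that the table lists for CAV1 and CAV2. Of these, the window of the second CAV1 start site overlaps most of the CAV1 sequence shown above. Among all 35116 RefSeq windows of this length, 11.9% held GGAATG and 6.57% held TGANTCA. The word in capitals, GGGCGG, was added after the sequences had been seen and does not overlap itself in those shown. It occurred 6 times in the window of CAV2, 3 times in that of CAV1 and 2 times in that of MET, and 42.6% of all windows held it at least once. All 3 windows were rich in G and C, at 83.2% for CAV2, 63.6% for CAV1 and 68.4% for MET, against a median of 58.0% over all windows. A missing word says only that these letters are not in these bases, and the sequence under the peaks themselves was not used here.

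The 5 peaks of the caveolin and MET window were spread over most of its length. The first lay at its lower end, from 116074699 to 116075485, and had a height of 28, where the height is the score that the authors deposited for the summit and has no stated unit. The second, from 116116734 to 116117529, was the tallest of the 5, with a height of 32. The third, from 116209768 to 116210611, was the lowest, with a height of 13. The fourth, from 116341916 to 116342565, had a height of 20. The fifth, from 116440979 to 116441834, had a height of 30. The taller peaks thus stood towards both ends of the window and the lower ones in its middle.

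Set against the list, these heights were ordinary. The whole list had a median of 24 and an interquartile range of 19 to 30. A height of at least 32 was reached by 20.8% of all listed peaks and by 72 of the 440 on chromosome 7. The peak of height 13 was near the floor of the list, where 98.5% of peaks were at least as high, and only 6 of the peaks on chromosome 7 were lower. The median over the 5 peaks was 28, against 23 over chromosome 7.

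In the window of PTRF, the 3 peaks were fewer but closer together. This window is also the shorter, at 130 kb against 450 kb, which alone favours fewer summits and shorter gaps. The first, from 40540458 to 40541185, had a height of 22. The second, from 40574944 to 40575790, had a height of 29. The third, from 40580198 to 40580855, had a height of 34, the tallest of all 8 peaks. On chromosome 17, 43 of 293 peaks were at least as tall as the third, and over the whole list 16.8% were. The median over the 3 peaks was 29, against 23 over chromosome 17.

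**Figure D1:**
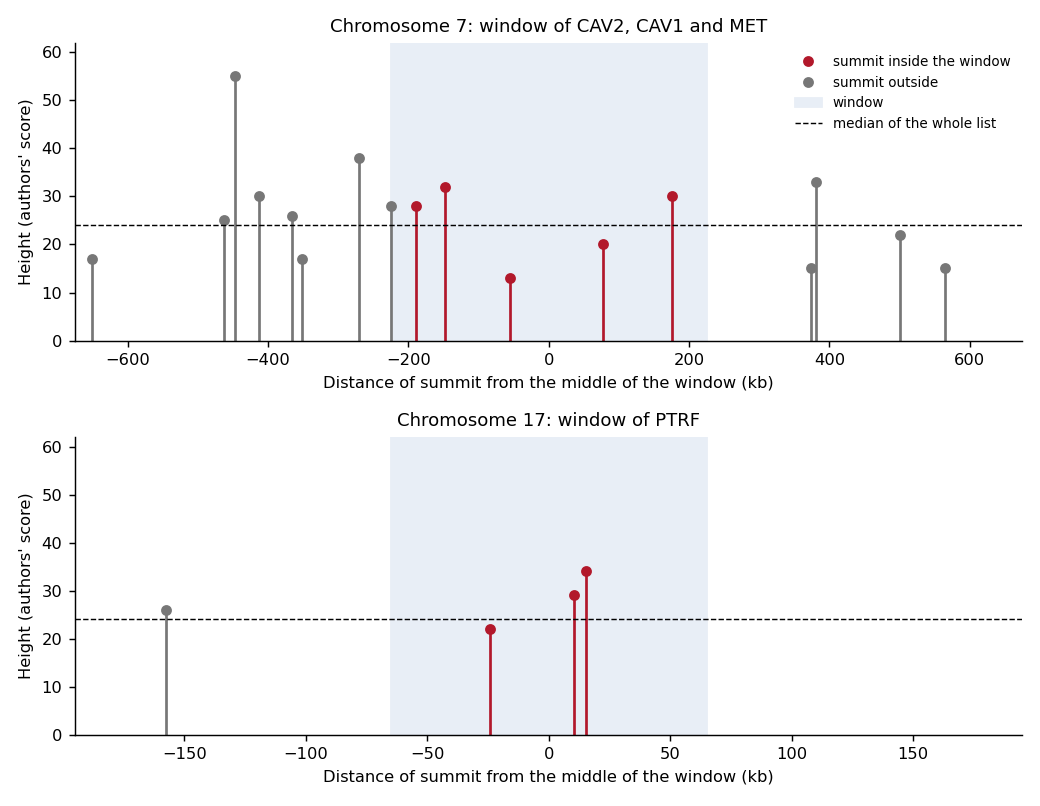
Height of each summit (vertical axis, the authors' score) by its distance in kb from the middle of the window (horizontal axis), for chromosome 7 above and chromosome 17 below. Red marks the 5 and 3 summits inside the shaded windows, grey the summits in the stretches of equal length on either side, and the dashed line the list's median of 24. The tallest peak in view, of height 55, stands outside the window.

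Of the 8 peaks, 5 were higher than the list's median, as were 45.5% of all listed peaks. None reached the mark of the tallest 10%, a height of at least 38, which 10.6% of the list reached. The heights of both windows overlapped, at 13 to 32 for the caveolins and MET and 22 to 34 for PTRF, and with 1 library no spread between cultures is known.

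All 8 intervals were wider than the list's median of 611 bp, where 50.0% of the list lay above it, and 6 of the 8 were among the widest 25% of the list, a mark that 25.2% of all peaks reached. In the caveolin and MET window, the widths were 787, 796, 844, 650 and 856 bp in order of position. In the PTRF window they were 728, 847 and 658 bp. The median over the 8 was 791.5 bp, and the narrowest, the fourth peak on chromosome 7, still exceeded the median of 590 bp on its chromosome. The stretches of equal length on either side of the caveolin and MET window had lower medians, of 544.5 bp over the 8 peaks before it and 545.5 bp over the 4 beyond it, although each held 1 peak wider than any member, of 1087 and 1167 bp. On chromosome 17 the median was higher, at 634 bp, and the single peak of the stretch below the PTRF window, at 678 bp, was wider than the third peak inside it. Only the second peak of the PTRF window, of 847 bp, exceeded the upper quartile of that chromosome, 737 bp.

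Width varies with height in this list, so each member was also set beside all listed peaks of its own height. The fifth peak on chromosome 7 was the widest for its height: 26 of the 285 peaks of height 30, or 9.12%, were at least as wide. For the first and second peaks there, the shares were 13.9% of 303 peaks of height 28 and 18.0% of 217 peaks of height 32. The third, low peak was less unusual among its equals, with 23.9% of the 138 peaks of height 13 at least as wide, since these had a median of 682 bp. For the fourth, the share was 25.6% of 563 peaks of height 20. On chromosome 17, 15.5% of 528 peaks of height 22 matched the width of the first peak and 14.5% of 318 peaks of height 29 that of the second. The tallest member, of height 34, was the nearest to its equals, with 39.2% of 176 peaks at least as wide. Each of the 8 was wider than the median of the peaks of its height. No chance level was computed for this, and the 8 peaks, which share 1 library, are not replicates.

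**Figure D2:**
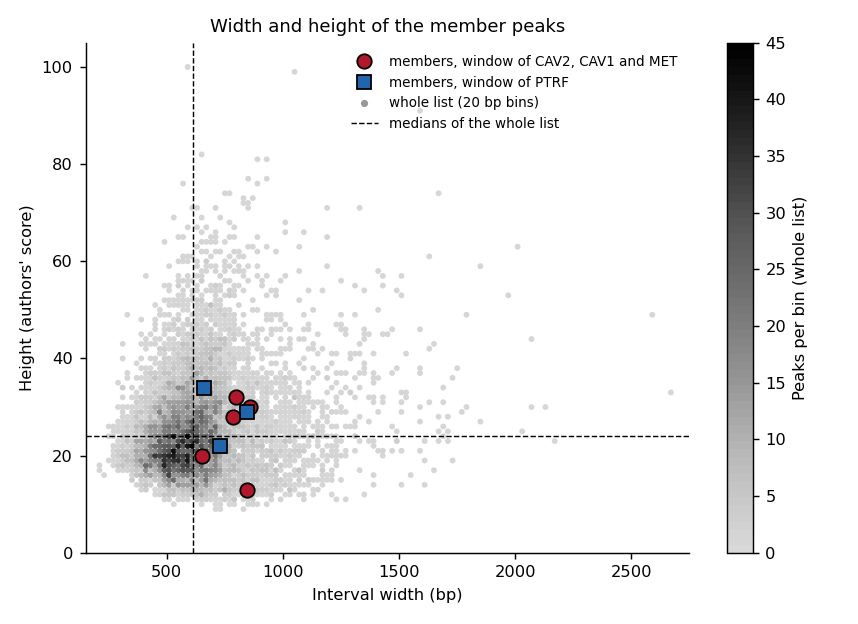
Height (vertical axis, the authors' score) against interval width in bp (horizontal axis) for the 5 member peaks of the CAV2, CAV1 and MET window (red circles), the 3 of the PTRF window (blue squares) and the whole list (grey points, one for each 20 bp bin of width and each height, darker for more peaks). Dashed lines are the list's medians, 611 bp and 24; all 8 members lie to the right of the first, while their heights fall on both sides of the second.

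The summit lay close to the middle of most of the 8 intervals, but not of the third peak on chromosome 7. There it stood 237.5 bp from the middle, with 185 bp of the interval on its lower side and 659 bp on its upper side, a ratio of 3.56 between the longer and the shorter side. An offset at least as large was found for 2.99% of the list, and a ratio at least as large for 1.51%. This was also the lowest member, and a median offset of 70.75 bp was found over the 280 listed peaks at or below its height, against 42.5 bp over the whole list. The fifth peak had the next largest offset, 110.5 bp, with 538 bp on its upper side, and the second peak of the PTRF window followed with 89.0 bp, its longer side, of 513 bp, being the lower one. The other 5 offsets ran from 21.5 to 46.5 bp. In all, 6 of the 8 offsets were above the list's median, as were 50.0% of all offsets. An offset in bp can be larger in a wider interval, and all 8 intervals were wider than the list's median. The ratio of the longer to the shorter side had a median of 1.29 over the 8, against 1.34 over the list. By this ratio the members as a set were not more off-centre than the list. Of the 8 summits, 7 fell on a multiple of 32 bp and 1 lay 16 bp from one, so offsets of 21.5 to 46.5 bp are near the resolution of the positions.

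**Figure D3:**
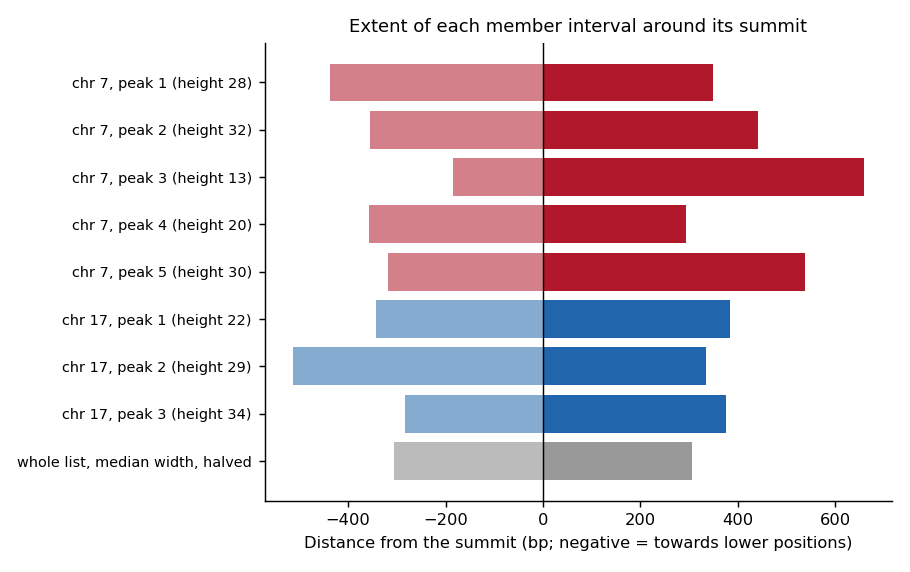
Extent of each member interval on the lower side (left, pale) and upper side (right, dark) of its summit, in bp, for the 5 peaks of the chromosome 7 window (red) and the 3 of the chromosome 17 window (blue), with the list's median width of 611 bp drawn as equal sides in grey. The third peak of chromosome 7, of height 13, extends 185 bp below and 659 bp above its summit.

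Both windows held more peaks than most stretches of their length. The caveolin and MET window had 11.1 peaks per Mb, against 2.93 per Mb over chromosome 7, a ratio of 3.79. When the genome was cut into 6448 tiles of 450 kb, the median tile held 1 summit and 37.9% held none. At least 5 summits were held by 6.09% of the tiles, and by 17 of the 351 tiles on chromosome 7. The PTRF window had 23.1 peaks per Mb, against 3.85 per Mb over chromosome 17, a ratio of 5.99. This density depended on the limits, and was 13.0 per Mb with both moved outwards by 50 kb. Of 22376 tiles of 130 kb, 71.5% were empty, 2.88% held at least 3 summits and 1 held 8. On chromosome 17, 14 of 618 tiles held at least 3. The windows were laid around genes, whereas tiles were laid along whole chromosomes, less the incomplete tiles at the outermost summits, so a share of tiles describes how common such a count is and is no measure of chance. Unlike the chromosome lengths behind the densities, the tiles also cover each chromosome's longest stretch without a summit. This raises the share of empty tiles and lowers the shares of tiles that held summits. Neither density was corrected for DNA copy number.

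**Figure D4:**
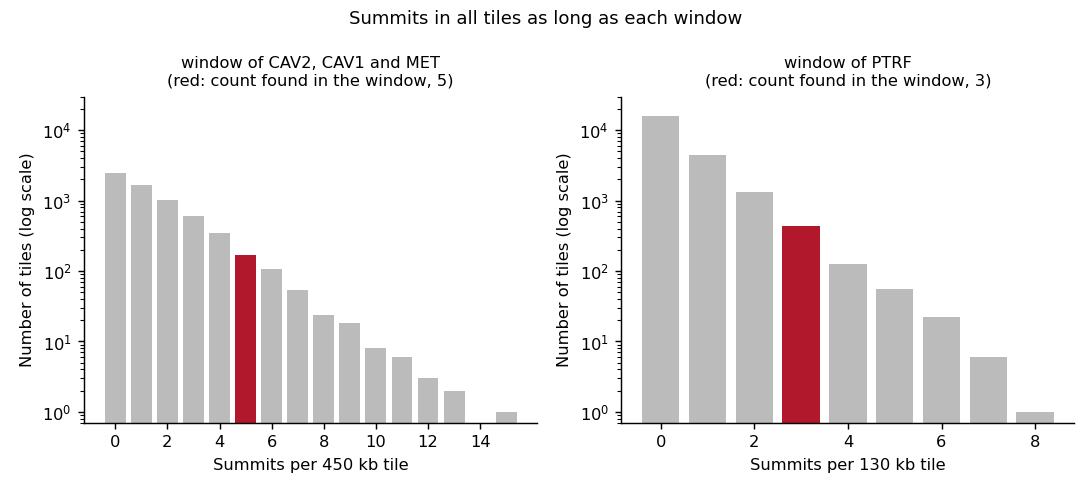
Number of genome tiles (vertical axis, log scale) by the summits each tile holds (horizontal axis), with tiles of 450 kb for the CAV2, CAV1 and MET window on the left and of 130 kb for the PTRF window on the right. The red bars mark the counts found in the windows, 5 and 3, which 6.09% and 2.88% of tiles reached or passed.

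The chromosome 7 window was not the densest part of its own surroundings. The stretch of equal length below it, from 115.59 to 116.04 Mb, held 8 summits with heights from 17 to 55, and the stretch above it, to 116.94 Mb, held 4 with heights from 15 to 33. The window's density of 11.1 per Mb thus lay between 17.8 per Mb before it and 8.89 per Mb beyond it. The tallest peak of the wider region, of height 55, ran from 115816939 to 115817495, outside the window. One further peak missed the window by 16 bp: it ran from 116039768 to 116040402 with a height of 28 and a width of 635 bp, so that its interval crossed the lower limit. On the upper side, the next summit was 149 kb beyond the limit and had a height of 15.

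The PTRF window had few summits beside it, over stretches of 130 kb where those on chromosome 7 were of 450 kb. The stretch below it held 1 summit, of height 26, which was 92.8 kb from the limit, and the stretch above it held none. An empty stretch of this length is common, as 71.5% of all tiles of 130 kb were empty. That share includes tiles in the longest stretch without a summit of each chromosome. Above the chromosome 7 window, too, the first 130 kb held no summit, the next being 149 kb away. Above the PTRF window, the next summit was 486 kb beyond the limit and had a height of 16. From the tallest peak of the PTRF window, of height 34, the distance to that summit was 536 kb, a gap that 16.2% of all gaps between neighbouring summits reached.

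Spacing also differed between the windows, which are of unlike length, 450 and 130 kb. In the caveolin and MET window, the 4 gaps between successive summits were 42.0, 92.9, 132 and 99.0 kb, all under the median gap of 162 kb on chromosome 7. Such gaps follow largely from 5 summits lying in 450 kb, and restate the density. The distance to the nearest other summit, inside the window or not, had a median of 92.9 kb over the 5 peaks. This was longer than the 74.1 kb over chromosome 7 and the 55.8 kb over the list. No 2 of its peaks were close: none of the 5 had another summit within 10 kb, which 19.5% of listed peaks had, and the first 2 had one within 50 kb, as did 47.8% of the list. In the PTRF window, the second and the third peak, of heights 29 and 34, were 5.02 kb apart from summit to summit, with 4.41 kb between their intervals. Of all gaps in the list, 6.82% were as short. Counted by peak, 12.9% of listed peaks had their nearest other summit at most this far away. The first peak of this window was 34.7 kb from the second. Thus 2 of the 8 members had a neighbour within 10 kb and 5 had one within 50 kb. The close pair holds the tallest member and the second-tallest of its window, and neither of the 2 intervals overlaps the other.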

How the data were processed

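Listed in the submitters' processing notes are BWA 0.6.1, an aligner, MACS, a peak caller, and hg19 as the build. Settings of MACS, its version, the treatment of duplicate reads and the role of the input are not given in these sources. The file has 2 tracks per the file headers, of which the first gives summits and the second intervals. The score of each summit was deposited by the authors as a whole number without a unit, is called height here, and served only to describe and rank peaks within the list. Both tracks were joined by their order, and each summit lay inside its interval for all 9393 peaks. Interval starts were converted to count from 1, and summits are as deposited.

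Read depth is unknown. There was no second ChIP library to show the spread between cultures, and no p-value was computed. Members were taken by position of the summit. The genes, windows and comparisons were chosen with earlier results of these data known, and the stretches beside the windows, the widths at equal height and GGGCGG after the values were seen. The genes named are the 4 members and their neighbours in the table, and every member peak is given by position.

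Chromosome length was the distance from first to last summit less the longest stretch without a summit. Tiles began at position 1 of each chromosome. Alternatives were peaks higher than the median, other limits, intervals that overlap a window by at least 1 bp, shifted tiles, merged peaks, other joining distances and full chromosome length. Gene symbols, with PTRF listed as CAVIN1, and 250-base promoter windows came from RefSeq tables of GRCh38.p14, which matched 4 of 4 genes by name and 3 of 4 by promoter window. Python 3.11.15, numpy 2.4.6 and pandas 2.3.3 were used, and counting, spacing and grouping were tested on simulated data.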

Additional observations from a re-analysis of the deposited data

How the results depend on the processing

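No paired analysis was possible because the ChIP has a single library and the labels number no replicates; leaving one out was not possible either. Of 34 values under alternatives for 16 results, 30 were counted as within 1.5 times the reported value and 4 as outside. Of these 4, 1 lay at the bound itself: the density of the PTRF window among peaks higher than the median. The same change in its peak count, from 3 to 2, was counted as within. The share of members in the tallest 10% is left out of this count, because 8 peaks are too few to judge it: it was 0% as reported and 10.0% with the limits moved outwards. Restriction to peaks higher than the list's median left 3 peaks in the CAV2, CAV1 and MET window and lowered its density to 6.67 per Mb, against 11.1, and that of the PTRF window to 15.4 per Mb, against 23.1; both fall by construction, since fewer peaks are counted. Relative to the chromosome, under the same restriction, the densities were 5.37 times for the CAV2, CAV1 and MET window, against 3.79, and 8.94 times for the PTRF window, against 5.99. Limits moved outwards by 50 kb lowered the density of the PTRF window to 13.0 per Mb, because the added length held no further summit. The same move added 2 peaks on chromosome 7, 1 of them in the tallest 10% of the list. Groups joined at 5, 10 and 25 kb held the same number of members, 2. The median width with moved limits, an alternative chosen after seeing the data, was 770 bp outwards and 791.5 bp inwards. Assignment to genes and motifs under the peaks were planned but not run, because no hg19 annotation or genome was used. All values are limited by having 1 library of unknown depth.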
